A study of Rattus norvegicus with 2 samples.

Results

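The genes described here are 10 genes of the response to low oxygen and of sugar breakdown: Vegfa, Adm, Slc2a1, Hk2, Pfkfb3, Pfkfb4, Ldha, Bnip3, Egln3 and Ndrg1. They were taken by name from the gene column of the arrays, on which 36174 gene names occur, and 19 of the 45598 probes other than controls carried one of these names. The study compared cervical lymph nodes of male Sprague-Dawley rats, 10 to 12 weeks old, between an unstressed control group (C) and a group under restraint stress (RS). The labels give no restraint time, and the methods of the study describe 30 min of binding to a board on the back for the group set against controls on arrays. The same methods describe halothane and pentobarbital for the animals before nodes were taken from each group. The array files carry a scan date earlier than the period given there for the experiments, so whether the stated age, restraint time and anesthesia describe the animals of these arrays is not settled. Each group was represented by 1 array of Agilent 60-base probes read in 1 color, and neither source states whether the RNA came from 1 rat or a pool. With a single array on each side, no difference between the groups could be tested. The error given with each difference is the spot error, combined from the errors that the scanner software gave the spots on either array, which leaves out all variation between rats.

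Cells sense oxygen through the prolyl hydroxylases of the Egln family, which mark the alpha subunits of hypoxia-inducible factor (HIF) for destruction as long as oxygen is present. When oxygen falls, HIF accumulates, binds DNA at a short core motif and activates genes for vessel growth, glucose uptake, glycolysis and mitochondrial removal. Most of the 10 genes are known HIF targets, but several also respond to other signals, such as cyclic AMP, growth factors, insulin or glucocorticoids. Lymph nodes are rich in lymphocytes, and the arrays showed this tissue: all 5 B cell markers and all 6 T cell markers with a probe were well above background on both arrays, among them Cd3g at intensities of 13692 and 11604 on the C and RS arrays.

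The HIF core motif is written as ACGTG or GCGTG. Both were searched on both strands of the 250 bases before the transcription start in the promoter table of RefSeq (build GRCr8), where 36.7% of 33469 promoters held at least 1 of them. The palindrome CACGTG, in 5.59% of promoters, holds ACGTG on both strands and was counted as 2 matches. The table matched 9 of the 10 genes, all but Ndrg1, with 2 starts for Vegfa. Of these 9 genes, 4 had a match: Slc2a1, Ldha and Bnip3 with 4 matches each, and Pfkfb3 with 2 matches, which are 1 CACGTG. These promoters are shown with the matches in capitals, together with those of Adm and Hk2, the genes with the largest differences between the arrays, whose windows held no match.
Slc2a1, chr5:138002272-138002521, forward strand: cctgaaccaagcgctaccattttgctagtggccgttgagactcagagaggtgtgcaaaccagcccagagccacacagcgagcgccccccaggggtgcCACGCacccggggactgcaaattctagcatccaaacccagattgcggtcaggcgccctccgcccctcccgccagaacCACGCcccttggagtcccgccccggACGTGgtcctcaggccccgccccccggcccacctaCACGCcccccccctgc
Ldha, chr1:106507842-106508091, forward strand: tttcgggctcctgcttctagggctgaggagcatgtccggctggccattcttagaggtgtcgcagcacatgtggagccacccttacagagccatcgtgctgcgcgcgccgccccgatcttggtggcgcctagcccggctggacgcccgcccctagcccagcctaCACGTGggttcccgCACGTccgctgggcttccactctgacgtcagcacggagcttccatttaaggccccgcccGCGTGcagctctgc
Bnip3, chr1:203154963-203155212, reverse strand: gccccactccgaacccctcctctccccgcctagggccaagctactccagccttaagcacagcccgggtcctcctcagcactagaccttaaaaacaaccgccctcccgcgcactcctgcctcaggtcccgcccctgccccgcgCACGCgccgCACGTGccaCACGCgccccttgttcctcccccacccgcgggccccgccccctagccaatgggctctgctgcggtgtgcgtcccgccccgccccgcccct
Pfkfb3, chr17:71944683-71944932, forward strand: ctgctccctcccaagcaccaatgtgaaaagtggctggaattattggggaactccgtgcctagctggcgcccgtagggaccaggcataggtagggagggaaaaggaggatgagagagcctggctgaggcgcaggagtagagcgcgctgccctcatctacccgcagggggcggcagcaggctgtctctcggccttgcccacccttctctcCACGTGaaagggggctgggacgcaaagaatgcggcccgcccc
Adm, chr1:174179950-174180199, forward strand: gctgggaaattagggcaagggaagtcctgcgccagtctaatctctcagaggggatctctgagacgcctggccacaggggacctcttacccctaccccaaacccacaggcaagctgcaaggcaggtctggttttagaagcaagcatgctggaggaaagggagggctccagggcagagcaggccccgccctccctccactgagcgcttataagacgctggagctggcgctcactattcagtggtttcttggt
Hk2, chr4:116841276-116841525, reverse strand: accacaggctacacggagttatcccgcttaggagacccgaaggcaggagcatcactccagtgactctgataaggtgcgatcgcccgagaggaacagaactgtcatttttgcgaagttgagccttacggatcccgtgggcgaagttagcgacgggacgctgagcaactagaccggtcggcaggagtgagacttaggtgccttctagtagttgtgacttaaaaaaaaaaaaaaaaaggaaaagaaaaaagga
The single match of Slc2a1 to ACGTG began 51 bases before the start, and the CACGTG of Bnip3 began 99 bases before it. A match is a description of the letters and not of a binding site, and a window without one says nothing about HIF.

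Of the 10 genes, 3 were higher on the RS array by 2-fold or more, Adm, Hk2 and Pfkfb3, and 0 were lower by 2-fold or more. Among all 21096 genes that stood well above background on 1 or both arrays, 3.46% were higher and 4.28% were lower by 2-fold or more. Each gene is represented by its brightest probe, and all 10 genes were well above background on both arrays. The log2 difference, RS minus C, ranged from -0.56 for Egln3 to 1.51 for Adm, with a median of 0.50, compared with 0.02 over all genes. The difference was above 0 in 7 of the 10 genes, against 52.1% of all genes. In either direction, it exceeded 1.96 times the spot error in 7 of the 10, against 21.2% of all genes. These are not the same 7: the second count includes Egln3, which was lower, and leaves out Ldha. Here and below, the share of 21.2% is not matched for brightness or number of spots, on which the spot error depends. Of the 21096 genes behind it, 19214 were well above background on both arrays. The 10 genes were chosen with earlier results of these arrays known, so the counts for them are a description. RNA of a whole node cannot tell a change in the number of cells of a type from a change in RNA per cell.

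**Figure D1:**
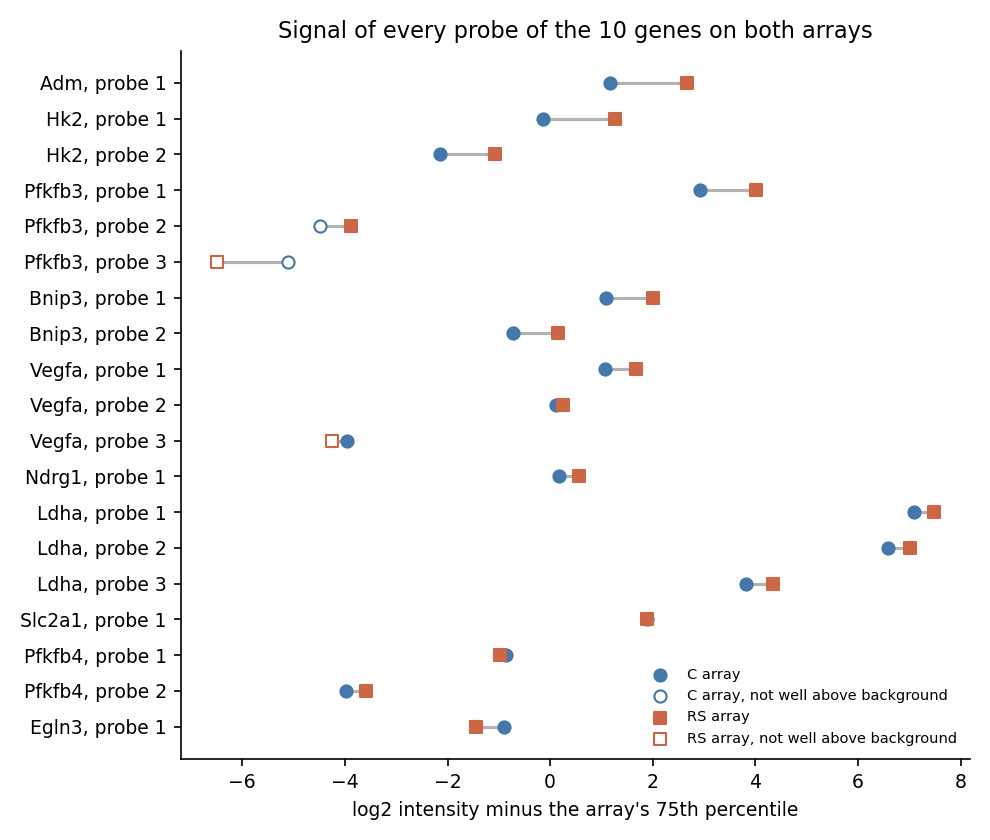
Signal of each of the 19 probes of the 10 genes on the C array (blue circles) and the RS array (orange squares), as log2 intensity after subtraction of each array's 75th percentile. Open symbols mark signals not well above background, and probes of a gene are numbered from the brightest. Probe 1 of Adm lay at 1.16 on the C array and 2.67 on the RS array, whereas the symbols of Slc2a1 coincide at 1.88.

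Adm and Vegfa encode secreted factors. Adm encodes adrenomedullin, a peptide that widens vessels and tightens the endothelial barrier. Its only probe, at 168382310 to 168382369 of chromosome 1, forward strand (positions here are as deposited, under a header naming the build rn4), was printed in 10 spots. The mean intensity was 423 on the C array, with spots from 390 to 449, and 1123 on the RS array, with spots from 1008 to 1211. The spots of the arrays did not overlap, and after normalization Adm was 2.84-fold higher on the RS array (log2 difference 1.51, spot error 0.06). Of all genes screened, 1.58% had a difference at least as high.

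Vegfa encodes the main growth factor of blood vessel endothelium, and its 3 probes gave different answers. The brightest (chromosome 9, 10535933 to 10535992), printed in 2 spots, went from spots of 366 and 428 on the C array to spots of 552 and 581 on the RS array, which was 1.53-fold higher (log2 difference 0.62, spot error 0.14). The second probe (10528551 to 10528610), which the files list under another transcript of the gene, had intensities of 205 and 211 (log2 difference 0.13, spot error 0.21). The third probe (10531934 to 10531993) gave 12.1 for C and 9.19 for RS, the latter not well above background. Thus only the brightest probe stood above its spot error, and none reached 2-fold. The second probe contains a stretch of 6 or more bases in which A and G alternate, and the 1013 genes represented by such a probe had a median log2 difference of -0.46. Whether this sequence affected the second Vegfa probe was not tested.

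Slc2a1 encodes GLUT1, the glucose carrier by which most cells take up sugar, and it was even between the arrays. Its probe (chromosome 5, 139718779 to 139718838) read 693 for C and 647 for RS, which were equal after normalization (log2 difference 0.00, spot error 0.20). Slc2a3, which encodes the neuronal and leukocyte carrier GLUT3, differed by 0.05 on its brightest probe, with intensities of 794 and 770 over 10 spots. Its dim second probe had 36.5 and 16.8 (log2 difference -1.02, spot error 0.27), so that the probes of Slc2a3 disagreed. For neither glucose carrier was the brightest probe higher on the RS array by more than its spot error.

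Hk2 and Pfkfb3 act at the entry of glycolysis, and both were past 2-fold. Hk2 encodes the inducible hexokinase, which traps glucose in the cell as its phosphate, and both of its probes gave a higher signal on the RS array. The brighter probe (chromosome 4, 116924279 to 116924338, reverse strand) went from an intensity of 171 to 421, or 2.64-fold (log2 difference 1.40, spot error 0.20). The second probe (116925790 to 116925849) went from 42.5 to 83.6, or 2.11-fold (log2 difference 1.08, spot error 0.22). Each Hk2 probe had 1 spot on each array. The other hexokinases differed by less than their spot errors, Hk1 by a log2 difference of -0.06 (spot error 0.21) and the dim Hk3 by 0.29 (spot error 0.39).

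Pfkfb3 and Pfkfb4 encode enzymes that make and remove the activator of phosphofructokinase, and so set the pace of glycolysis. The brightest probe of Pfkfb3 (chromosome 17, 78270574 to 78270633) went from an intensity of 1425 to 2857, or 2.15-fold (log2 difference 1.10, spot error 0.20). The other 2 probes of this gene carried almost no signal. The second had 8.43 for C, not well above background, and 12 on the RS array, and the third, with 5.5 and 1.96, was not well above background on either. The call for Pfkfb3 therefore rests on 1 spot of 1 probe on each array, and the mean over the probes above background gave a log2 difference of 0.85. Pfkfb4 differed by less than its spot error on both probes. The brighter (chromosome 8, 114051408 to 114051467) had intensities of 104 and 89.8 (log2 difference -0.11, spot error 0.21), and the second had 12 and 14.8 (log2 difference 0.39, spot error 0.41). In the same family, Pfkfb1, the isoform known from liver and muscle, went from 41.6 to 135, or 3.47-fold (log2 difference 1.79, spot error 0.22). This value too rests on 1 spot of its only probe on each array. The brightest probe of Pfkfb2 went from 738 to 805, a log2 difference of 0.22 (spot error 0.20). The dim other probes of Pfkfb2 disagreed with each other: 1 went from 21.4 to 10.3, not well above background on the RS array (log2 difference -0.95, spot error 0.39), and the remaining 2 differed by 0.34 and 0.54 (spot errors 0.47 and 0.59). Of the 4 Pfkfb genes, Pfkfb1 and Pfkfb3 were thus past 2-fold.

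**Figure D2:**
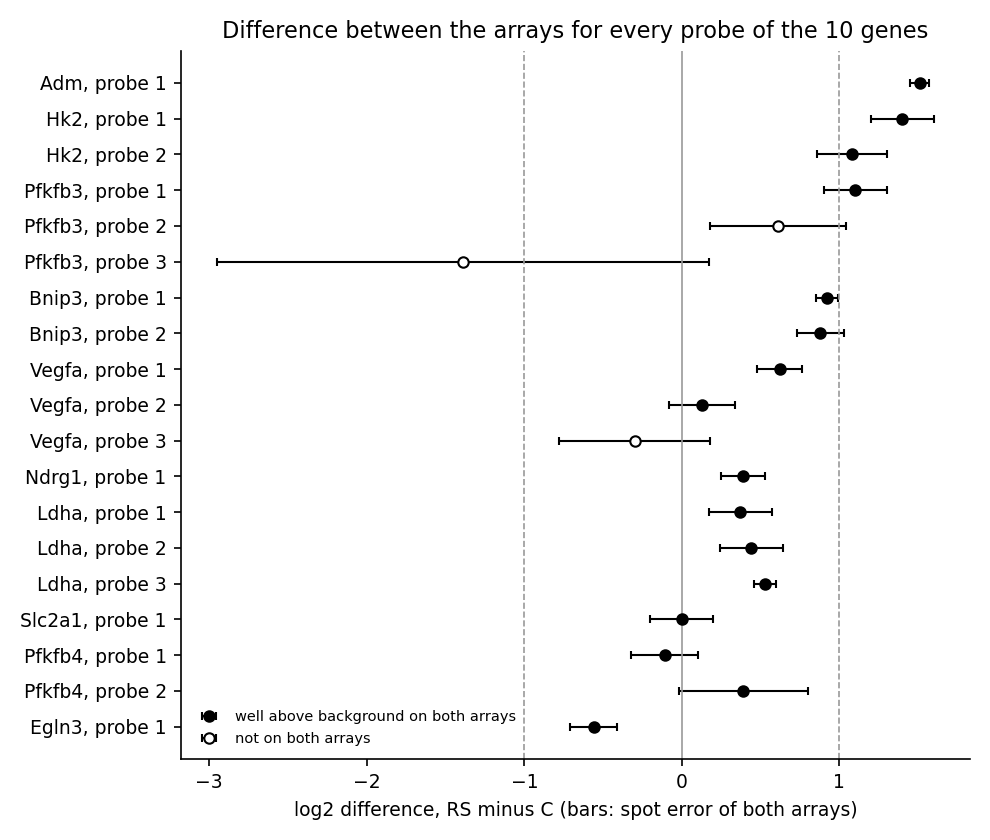
Log2 difference between the arrays (RS minus C) for each of the 19 probes, with the spot error of both arrays as bars. Dashed lines mark 2-fold in either direction, and open symbols are probes not well above background on both arrays. The probe of Adm, both probes of Hk2 and the first of Pfkfb3 lie past the upper line, both probes of Bnip3 lie just under it, and Egln3 lies at -0.56.

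Ldha encodes the lactate dehydrogenase subunit that turns pyruvate into lactate, and its 3 probes were all higher on the RS array, each by less than 2-fold. The brightest (chromosome 1, 97412488 to 97412547) had intensities of 25998 and 31409 in 1 spot each, or 1.29-fold (log2 difference 0.37, spot error 0.20), which is under 1.96 times the spot error. The second had 18024 and 22881, or 1.36-fold (log2 difference 0.44, spot error 0.20). The third, printed in 10 spots of which 8 were used on the C array and 9 on the RS array, had spots from 2552 to 2780 and from 3331 to 3829, or 1.45-fold (log2 difference 0.53, spot error 0.07). The spots of this probe did not overlap between the arrays. Ldhb, which encodes the subunit that favors the reverse reaction, was in the opposite direction, with intensities of 2627 and 2069 and a log2 difference of -0.25 (spot error 0.06).

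Bnip3 encodes a mitochondrial outer membrane protein that directs mitochondria to degradation. Its brighter probe (chromosome 1, 198683030 to 198683089, reverse strand) had a mean intensity of 402 on the C array, with 9 spots from 378 to 429, and 709 on the RS array, with 9 spots from 671 to 757. This was 1.89-fold higher (log2 difference 0.92, spot error 0.07), with no overlap of the spots. The second probe covers 2122 bases of the genome, from 198683944 to 198686065, so that its 60 bases are split in the genome. Its signal went from 115 to 197, or 1.84-fold (log2 difference 0.88, spot error 0.15). Both probes of Bnip3 agreed to within 0.04 log2 units and lay just under the threshold. Bnip3l, its close relative, differed by 0.21 (spot error 0.20) on its brighter probe, with intensities of 3822 and 4123, and by -0.06 (spot error 0.20) on the second.

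**Figure D3:**
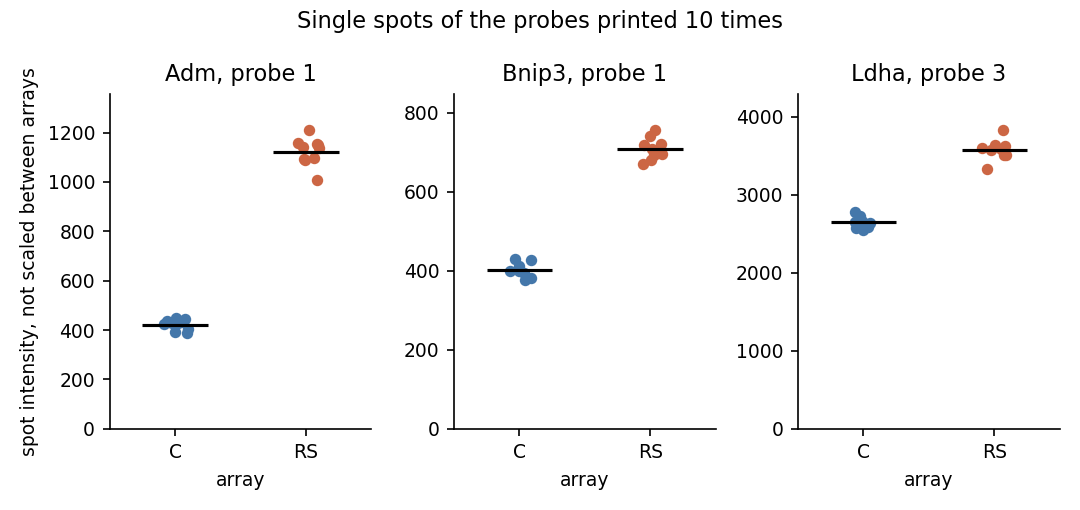
Intensity of every spot used for the probes of Adm, Bnip3 and Ldha that are printed 10 times, on the C array (blue) and the RS array (orange), before scaling between the arrays. Black lines are geometric means, which for Adm are 423 and 1123, and the spots of the arrays do not overlap for any of the 3 probes. The spots share 1 RNA sample per array and are not replicates of the groups.

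Egln3 encodes the oxygen-dependent prolyl hydroxylase whose own gene is known as a HIF target, and it was the member with the lowest difference. Its probe (chromosome 6, 74451958 to 74452017, reverse strand) had spots of 101 and 103 on the C array and of 62.4 and 66.8 on the RS array, which was 1.48-fold lower on the RS array (log2 difference -0.56, spot error 0.15). Ndrg1, which encodes a stress-induced cytoplasmic protein linked to differentiation, had spots of 212 and 215 on the C array and of 250 and 271 on the RS array. It was 1.31-fold higher (log2 difference 0.39, spot error 0.14), with no overlap of the spots. Set against the promoters shown above, the 4 genes with a match to the HIF core motif had log2 differences of 0.00 (Slc2a1), 0.37 (Ldha), 0.92 (Bnip3) and 1.10 (Pfkfb3). The 5 genes without a match in the window had differences of -0.56 (Egln3), -0.11 (Pfkfb4), 0.62 (Vegfa), 1.40 (Hk2) and 1.51 (Adm). The ranges of both sets overlapped, and whether a match goes with the difference was not tested.

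Genes of oxygen sensing itself differed little between the arrays. Of 12 listed genes, 11 were well above background and 0 were past 2-fold in either direction, against 3.46% higher and 4.28% lower among all genes. The difference exceeded 1.96 times the spot error in 1 gene (Egln2), against 21.2% of all genes. The median log2 difference was 0.12. Of the 11 genes, 9 (81.8%) had a difference above 0, against 52.1% of all genes. The 3 with the brightest probes were Epas1, which encodes HIF-2 alpha, with intensities of 4339 and 4263 (and 32.1 and 44.2 on a dim second probe, log2 difference 0.56, spot error 0.23), the ubiquitin ligase subunit Rbx1 with 3628 and 3690, and Vhl, whose product recognizes hydroxylated HIF, with 2640 and 2656. Hif1a went from 2028 to 2469 on its brighter probe (log2 difference 0.38, spot error 0.20), and its second probe differed by 0.09. In the Egln family, Egln1 differed by 0.04 (spot error 0.20) and Egln2 by 0.62 (spot error 0.20), compared with -0.56 for Egln3. HIF alpha subunits are controlled mainly as proteins, which the arrays did not measure.

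Of 26 other genes widely used as markers of the hypoxia response, 23 were well above background. By 2-fold or more, 5 (21.7%) were higher, against 3.46% of all genes, and 0 were lower, against 4.28%. The median log2 difference was 0.39, and 19 of the 23 (82.6%) were above 0, against 52.1% of all genes. Bhlhe40, a transcriptional repressor of clock genes, was 2.47-fold higher, and Angptl4, an inhibitor of lipoprotein lipase made in fat and liver, was 2.41-fold higher, from 647 to 1455. The collagen prolyl hydroxylase gene P4ha2 was 2.01-fold higher, with a log2 difference of 1.01 that lay at the threshold. Flt1, which encodes a VEGF receptor, had 8.13 on the C array, not well above background, and 19.9 on the RS array, at least 2.25-fold higher. The signals of its second probe, 4.5 and 2.08, were both not well above background. The values of Bhlhe40, Angptl4 and Flt1 each rest on 1 spot on each array. The difference exceeded 1.96 times the spot error in 12 of the 23, against 21.2% of all genes. These 12 are the 5 genes past 2-fold and 7 within it. All 7 were higher on the RS array: Lox, which encodes a collagen cross-linking enzyme, by a log2 difference of 0.84 (spot error 0.09), Ddit4, an inhibitor of mTOR signaling, by 0.77 (spot error 0.20), the collagen prolyl hydroxylase gene P4ha1 by 0.70 (spot error 0.14), Higd1a by 0.59 (spot error 0.25), Fam162a by 0.49 (spot error 0.06), the lipid droplet gene Plin2 by 0.46 (spot error 0.20) and the transferrin receptor gene Tfrc by 0.39 (spot error 0.14). The other 11, among them Car9 (-0.25, spot error 0.37), Ankrd37 (0.30, spot error 0.20), Kdm3a (0.16, spot error 0.21) and Pdk1 (-0.06, spot error 0.20), differed by less than 1.96 times the spot error. Epo, Stc2 and Pdk4 did not stand well above background on either array.

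**Figure D4:**
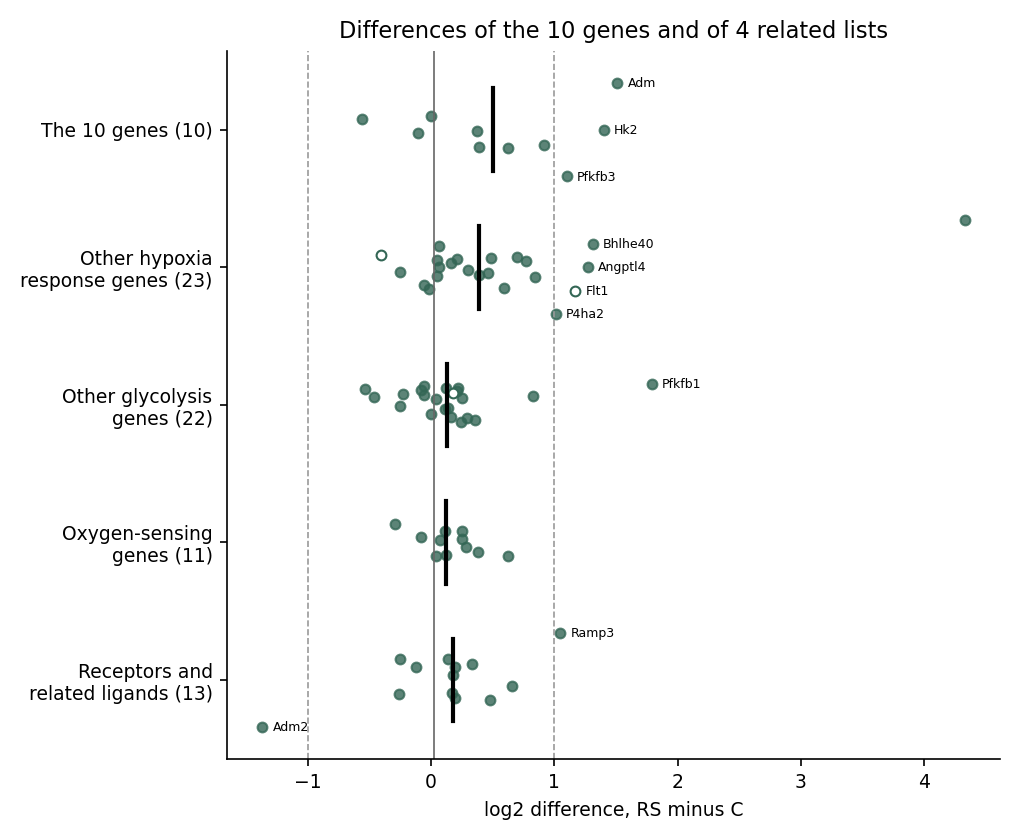
Log2 difference (RS minus C) of each gene well above background, for the 10 genes and 4 related lists, with the number of genes in brackets and the list median as a black bar. Open symbols are genes well above background on 1 array only, the grey line is the median of all 21096 genes (0.02), dashed lines mark 2-fold, and the genes past 2-fold that the text describes are named. The medians are 0.50 for the 10 genes, 0.39 for other hypoxia response genes, 0.13 for other glycolysis genes and 0.12 for oxygen-sensing genes.

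The enzymes detected between the entry of glycolysis and lactate all differed by less than 2-fold. Of 26 other genes of glycolysis and lactate transport, 22 were well above background. By 2-fold or more, 1 was higher (Pfkfb1, given above), against 3.46% of all genes, and 0 were lower, against 4.28%. The difference exceeded 1.96 times the spot error in 7, against 21.2% of all genes, and the median log2 difference was 0.13. Of the 22 genes, 15 (68.2%) had a difference above 0, against 52.1% of all genes. The phosphofructokinase genes Pfkl, Pfkm and Pfkp differed by 0.00, -0.23 and -0.06. Further down the pathway, Aldoa differed by 0.16, Tpi1 by 0.25, Pgk1 by 0.21 with intensities of 16996 and 18372, Pgam1 by 0.14, Eno1 by 0.12 and Pkm by 0.11. Eno3, the muscle enolase, was the lowest at -0.54 (spot error 0.06), with intensities of 925 and 597. Gapdh, which with Pgk1 and Eno1 makes up the 3 genes of the list with the brightest probes, differed by -0.46 on its brightest probe, which has alternating A and G as the second Vegfa probe does, and by 0.08 to 0.28 on its other 7 probes. Of the lactate carriers, Slc16a3, known as the exporter of glycolytic cells, went from 167 to 277, or 1.77-fold (log2 difference 0.83, spot error 0.06), and Slc16a1 differed by 0.36 (spot error 0.21).

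Receptors for adrenomedullin and VEGF and the related ligands had a median log2 difference of 0.18 over 13 genes, all well above background on both arrays. Of the 13 genes, 9 (69.2%) had a difference above 0, against 52.1% of all genes. In each direction 1 gene was past 2-fold, against 3.46% higher and 4.28% lower among all genes. Ramp3, which joins the receptor Calcrl to form an adrenomedullin receptor, went from 46.7 to 90.5, or 2.08-fold (log2 difference 1.05, spot error 0.22), while Calcrl differed by 0.33 (spot error 0.20) and Ramp2 by 0.14 (spot error 0.20). Adm2, which encodes the related peptide intermedin, went from 90.3 to 32.5 and was 2.59-fold lower on the RS array (log2 difference -1.37, spot error 0.23), opposite in direction to Adm. The values of Ramp3 and Adm2 each rest on 1 spot on each array. Kdr, the main signaling receptor for VEGF on endothelium, had 1923 and 2037, a log2 difference of 0.18 (spot error 0.20).

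Most markers of fat cells and erythrocytes, and 2 of the 7 neutrophil markers, also differed between the arrays by 2-fold or more. Among all genes, 3.46% were higher and 4.28% were lower by 2-fold or more. Of 9 fat cell markers, 7 were well above background on both arrays and 6 (Cfd, Fabp4, Retn, Adipoq, Cidec and Lep) were higher by 2-fold or more. The log2 differences of the 7 ranged from 0.57 to 3.24, and their summed signal, in multiples of the 75th percentile of each array, went from 36.1 to 103. Plin1 and Pck1, also markers of fat cells, did not stand well above background on either array. Of 8 erythrocyte markers, 7 were well above background and all 7 were higher by 2-fold or more, among them Hba1, Hba2, Hbb, Hbb-b1, Alas2 and Ahsp, with a median log2 difference of 2.60 and a summed signal of 54.2 and 326. Of 7 neutrophil markers, 4 stood well above background on 1 or both arrays and 2 were past 2-fold, S100a8 at 3.99 and S100a9 at 3.78. The other 2 were within 2-fold. Csf3r differed by 0.11 (spot error 0.29), and Cxcr2, not well above background on the C array, by 0.73 (spot error 0.43). The summed signal of the 4 was 0.446 and 4.45. Mpo, Ngp and Camp did not stand well above background on either array. By contrast, none of the macrophage, endothelial, B cell, T cell and skeletal muscle markers was past 2-fold. The only salivary marker detected, Smgc, read 13.9 on the C array and 2.09, not well above background, on the RS array. It was at least 1.52-fold lower on the RS array, and since this is a bound, whether it passed 2-fold is not settled. Of the node stroma markers, 1 was past 2-fold, Pdpn at 1.16. The muscle genes Ckm, Myh2 and Myh4 and the salivary genes Amy1a, Bpifa2 and Aqp5 did not stand well above background on either array. The part of fat, blood and neutrophils in the differences of Adm, Hk2, Pfkfb3 and Bnip3 was not tested.

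**Figure D5:**
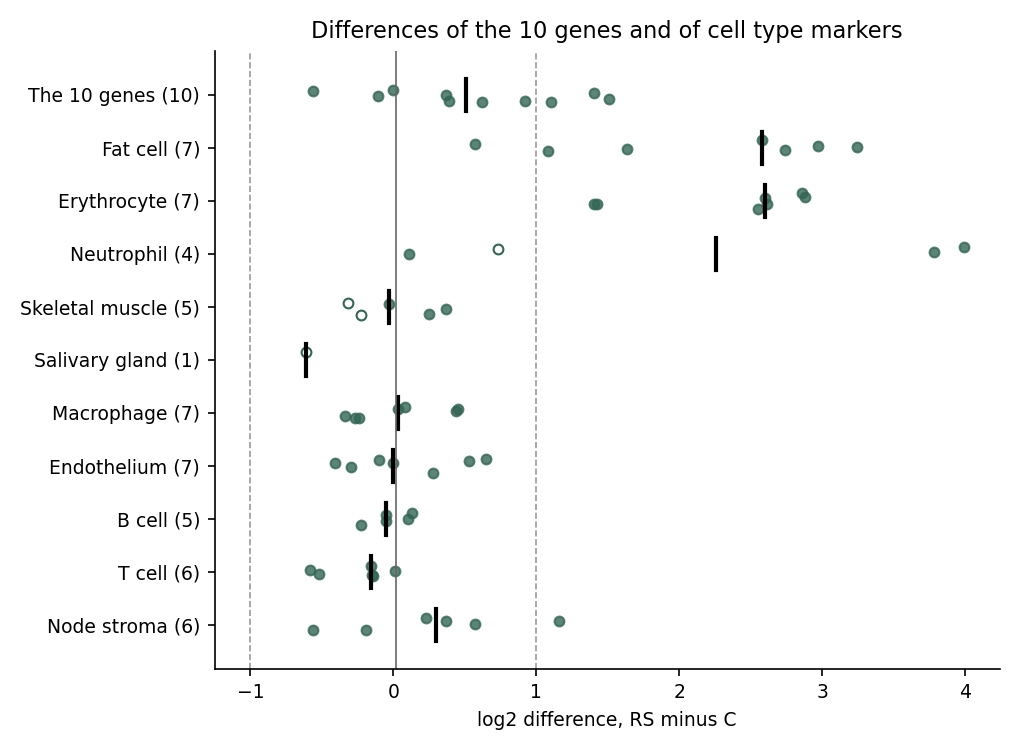
Log2 difference (RS minus C) of the 10 genes and of the markers of 10 cell types or tissues that were well above background, with their number in brackets and the list median as a black bar. Open symbols are genes well above background on 1 array only, the grey line is the median of all genes (0.02), and dashed lines mark 2-fold. Fat cell and erythrocyte markers have medians of 2.58 and 2.60, whereas B cell and T cell markers have medians of -0.05 and -0.16.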

How the data were processed

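Total RNA of cervical lymph nodes was labeled with Cy3 by the authors, hybridized to 1 array per group, scanned, and extracted with Feature Extraction 11.5.1.1. They deposited spot intensity values with the background subtracted within each array and no scaling between arrays, and a table of log2 values per probe, of which 100% for 45598 probes differed by less than 0.1 log2 units from log2 intensity scaled to each array's 75th percentile. Control spots and outlier spots (489 for C, 660 for RS) were left out, log2 intensities were averaged over the spots of a probe, and the 75th percentile over probes (189 and 176) was subtracted. A probe was well above background when over 50% of its spots carried that mark, which held for 54.7% and 54.9% of probes. No noncontrol probe was saturated. A gene was represented by its brightest probe, with 2-fold as the threshold and, where 1 array was not above background, a lower bound against the lowest signal above it (9.45 on the C array, 8.52 on the RS array) or the probe's own signal. The number of arrays limits the precision. The arrays shared 1 slide and 1 scan.

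All probes of the 10 genes are reported. From the other lists, genes past 2-fold were named, with the 3 brightest of the glycolysis and oxygen-sensing lists; genes named beyond this rule were chosen after their values were seen, and a few genes it picks are not reported here. The members and lists were chosen with earlier results of these data known. The steps were tested on simulated data, and 12 alternatives were tried: other scalings, normexp background, the deposited table, probe averaging, outlier spots, the bound, the background filter, and alternating A and G probes. Of the 19 member probes, 17 matched the RefSeq table by transcript, all 17 under the same symbol. R 4.3.3, limma 3.58.1, Python 3.11.15, numpy 2.4.6, pandas 2.3.3 and matplotlib 3.10.9 were used.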

Additional observations from a re-analysis of the deposited data

How the results depend on the processing

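Under the 12 alternatives, 111 of 120 values of single genes stayed within 1 spot error of the reported value, 9 moved by more, and 0 of the genes past 2-fold changed direction. Part of these values could not move. The brightest probes of the 10 genes were above background on both arrays and lacked alternating A and G. The settings for the bound, the background filter and alternating probes therefore left them unchanged. Probe averaging could not move Adm, Slc2a1, Egln3 and Ndrg1, which have a single probe. Adm stayed past 2-fold in all 12 (log2 difference 1.38 to 1.53), as did Hk2 (1.15 to 1.43), and Pfkfb3 in 11 (0.85 with the mean over probes, which left 2 of the 10 genes past 2-fold). Vegfa was 0.15 and Pfkfb4 0.14 with the mean over probes, and Egln3 was -0.33 with normexp. The median of the 10 genes lay between 0.40 and 0.53, that of the other hypoxia genes between 0.26 and 0.42, of the other glycolysis genes between 0.03 and 0.16, and of the oxygen-sensing genes between 0.02 and 0.23. Over all genes, 730 were higher and 903 lower by 2-fold or more, compared with 234 and 378 with normexp, 2031 and 2148 without a background filter, 493 and 601 with genes above background on both arrays only, and 716 and 498 with alternating probes left out. No paired analysis was possible because there was 1 array per condition. Signals near background, such as the second probes of Pfkfb3 and Pfkfb4, carry large spot errors (0.43 and 0.41).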

Other observations

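The study used Gapdh as the reference gene of its RT-qPCR, and its 8 probes on the arrays did not agree. The brightest, the only 1 containing a stretch of alternating A and G, read 9850 for C and 6680 for RS (log2 difference -0.46, spot error 0.20). The other 7 probes, from 7824 and 8008 for the brightest of them to 676 and 689 for the dimmest, were all above 0, by 0.08 to 0.28 on the log2 scale. The spot error of each of these 7 probes was 0.20. The 1013 genes represented by a probe with alternating A and G had a median log2 difference of -0.46. Whether this sequence affected the brightest Gapdh probe was not tested. After scaling, the sign for Gapdh thus depends on whether that 1 probe is used, since the other 7 agreed in sign. Among these 7, the probe with 980 for C and 970 for RS was above 0 (0.08) only after scaling.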
